A study of Homo sapiens with 6 samples.

Results

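The genes described here encode the machinery that moves proteins into the endoplasmic reticulum (ER) and between the ER and the Golgi. They were chosen by symbol from the protein-coding genes of GENCODE release 44, and 59 of 20046 genes matched. These were 13 genes of the COPII coat, SEC23IP, 8 of the COPI coat, 5 ARF GTPases, 10 TMED genes, 3 SEC22 genes, 6 protein subunits of the signal recognition particle (SRP), 6 genes of the SEC61 translocon and its partners, 4 subunits of the translocon-associated protein complex (TRAP), 2 catalytic subunits of signal peptidase, and TMED7-TICAM2, a readthrough gene. The TMED genes are called p24 cargo receptors below by their symbol alone. Whether each of them, TMED8 included, is a p24 protein was not tested. A member counted as bound where an IGF2BP3 cluster shared at least 1 nt with an exon of the gene, in the direction of the gene. Clusters were found on 51 of the 59 members in at least 1 library.

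The clusters came from IR-PAR-CLIP of endogenous IGF2BP3, an RNA-binding protein, in HCT116 cells, a human colorectal carcinoma line that here carried Tet-OsTIR1-PURO. All cells received 100 µM 4-thiouridine during 15 h before crosslinking at 365 nm, so that T-to-C conversions mark crosslinked RNA, and the antibody used against IGF2BP3 partially recognizes its paralog IGF2BP2. The 6 libraries, 1 per condition, were made with RNase I at 0.05/0.05, 0.1/0.025 or 0.05/0.025 U/µL (in-lysate/on-beads), with RNase T1 at 1/1 or 0.25/0.25 U/µL, and with a control IgG after RNase I at 0.1/0.025 U/µL. Electroelution was used for RNase I at 0.05/0.05 U/µL and for RNase T1 at 1/1 U/µL, called the electroeluted libraries below, and crushed gel for the other 3 IGF2BP3 libraries, so that the electroeluted and crushed-gel libraries of an enzyme also differ in concentration, and these cannot be told apart. The crushed-gel RNase I libraries differ from each other in the in-lysate concentration alone. Values given as 5 numbers are in the order just listed, with the 3 RNase I libraries before the 2 RNase T1 libraries. With 1 library per condition there was no test between conditions, and the 95% intervals given are Wilson or log-ratio intervals that cover counting error only. Levels are reads in clusters, summed over a gene, per 1000000 cluster reads of the library (CPM). RNA abundance was not measured, so a level does not separate binding from the amount of the mRNA.

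Secretory and membrane proteins are synthesized on ribosomes that SRP brings to the ER, where the chain passes through the SEC61 channel and signal peptidase removes the signal peptide. COPII vesicles, built by SAR1, SEC23/SEC24 and SEC13/SEC31, carry cargo from the ER, and COPI vesicles, which ARF GTPases recruit to the membrane, return proteins from the Golgi. The p24 proteins span the vesicle membrane and act as cargo receptors of both coats. IGF2BP3 is an oncofetal protein that binds mRNAs mainly in their 3′UTRs.

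The strongest RNase T1 1/1 U/µL cluster of each of the 12 members with the highest mean CPM lay in the 3′UTR, and for 11 of them the 30 nt around its mode (the position the cluster caller gives as its peak) are shown because these members had the most reads. The clusters of SSR3, SEC62 and SRP9 had 0.324, 0.414 and 0.467 T-to-C events per read. These are below the 0.5 that the target calls described further on require, and the other clusters shown were above it. Positions are GRCh38, read 5′ to 3′ on the strand of the mRNA, and capitals mark CATT, CAGT and CATA.
TMED2, chr12:123597543-123597572, plus strand: tttctgatgccaaagggttaaagcttcttg
TMED7, chr5:115615801-115615830, minus strand: gggaggaagaaaattgccttttaattgtta
TMED4, chr7:44579125-44579154, minus strand: tttctctttgtccacttacgCAGTaggtga
ARF1, chr1:228098901-228098930, plus strand: cacagcccctcgggagcaccccacctctgt
ARF3, chr12:48936459-48936488, minus strand: cttttgggattgggtgtttCATTcCATTtc
COPZ1, chr12:54351582-54351611, plus strand: ggaagatggagaatggaatactcactcttg
SRP9, chr1:225790076-225790105, plus strand: aaaccacCATAttacagaaatatttactac
SEC61A1, chr3:128069972-128070001, plus strand: tatgcggctgcagccgtctcacctgtttcc
SEC62, chr3:169994729-169994758, plus strand: tacctattttggggtataaacatggtgttt
SSR1, chr6:7287816-7287845, minus strand: aactaactccgtaatgaatggaattcaatt
SSR3, chr3:156542015-156542044, minus strand: cctacaagcagcaccccaaaggaaatatag
Over all member clusters, windows of this length held at least 1 of the 3 motifs in 44.1% of cases in the electroeluted RNase T1 library, beside 44.4% over clusters on all protein-coding genes, and in 33.3%, beside 33.8%, in the electroeluted RNase I library. Between 48.2% and 61.4% of member clusters had their mode at the first or last base of the cluster, so the windows often reach past the cluster. All windows, here and below, are unspliced genome sequence and may include intron where they reach past an exon.

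Of the 6 members with the largest share of reads in the coding sequence, described further on, 5 had their strongest RNase T1 1/1 U/µL cluster there, while that of COPB1 lay in the 3′UTR. The 5 belong to the COPII machinery, and their windows are shown because their position differs from that of the leading members.
SEC23IP, chr10:119898768-119898797, plus strand: gggaaccaaccccaaggaattccccaacca
SEC24A, chr5:134661469-134661498, plus strand: aacCATTgtcctcgtgcatcatcccaacca
SEC24B, chr4:109525366-109525395, plus strand: gcagggtgcatctattattatccatCATTc
SEC23B, chr20:18545988-18546017, plus strand: ccccacttcttttaggttatcagattcctt
SEC31A, chr4:82819122-82819151, minus strand: agcaacttCAGTgagacctctgctttcatg

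Target calls followed the study's criterion, read here as a cluster with over 10 CPM in which T-to-C events exceed 0.5 per read. Of the 59 members, 51 had a cluster in the electroeluted RNase I library, beside 43.7% of all protein-coding genes. The numbers were 43 (32% of all genes) and 44 (30.3%) in the other RNase I libraries, 48 (37.6%) in the electroeluted RNase T1 library and 32 (16.7%) at 0.25/0.25 U/µL. Of the members 40 were targets in the electroeluted RNase I library, beside 21.9% of all genes. The numbers were 36 (21.3% of all genes) and 37 (22%) in the other RNase I libraries, 34 (19.6%) in the electroeluted RNase T1 library and 28 (13.7%) at 0.25/0.25 U/µL. The counts depend on the criterion. With a limit of 0.75 events per read they were 14, 18, 20 and 12 in the first 4 libraries, with conversion events over all conversion and non-conversion events above 0.5 they were 0 in all 5, and with at least 20 reads in place of CPM the count at 0.25/0.25 U/µL, where every cluster passes 10 CPM, was 11. The members were bound and called in larger shares than protein-coding genes at large, which include genes that these cells may not express. Among genes with a cluster, 40 of 51 members were targets in the electroeluted RNase I library, beside 50.1% of all genes, and 34 of 48 in the electroeluted RNase T1 library, beside 52.2%. The IgG library, with 25 clusters and 324 cluster reads, had no cluster on a member.

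In all 5 IGF2BP3 libraries 24 members were targets (9.91% of all genes were). They included 6 TMED genes (TMED2, TMED4, TMED5, TMED7, TMED8 and TMED10), the ARF GTPases ARF1, ARF3 and ARF6, and SSR1 and SSR3 of TRAP. The SEC61 translocon contributed SEC61A1 and SEC62, SRP contributed SRP9 and SRP72, and COPI contributed COPB2 and COPZ1. The COPII coat contributed SAR1A, SAR1B, SEC23A and SEC24B. SEC22C, SEC23IP and the readthrough gene TMED7-TICAM2 completed the list. Another 21 members were targets in 1 to 4 libraries. SEC13, SEC22A, SEC22B, SEC24D, SSR4 and TMED3 had clusters but were never called. SEC16B, SEC31B, SEC61G, SEC11C, COPG2, COPZ2, TMED1 and TMED6 had no cluster in any library. The median length of the annotated 3′UTR of the canonical transcript was 2894.5 nt among the members called in all 5 libraries, 675 nt among the other members with clusters, and 349.5 nt among the 8 without clusters.

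**Figure D1:**
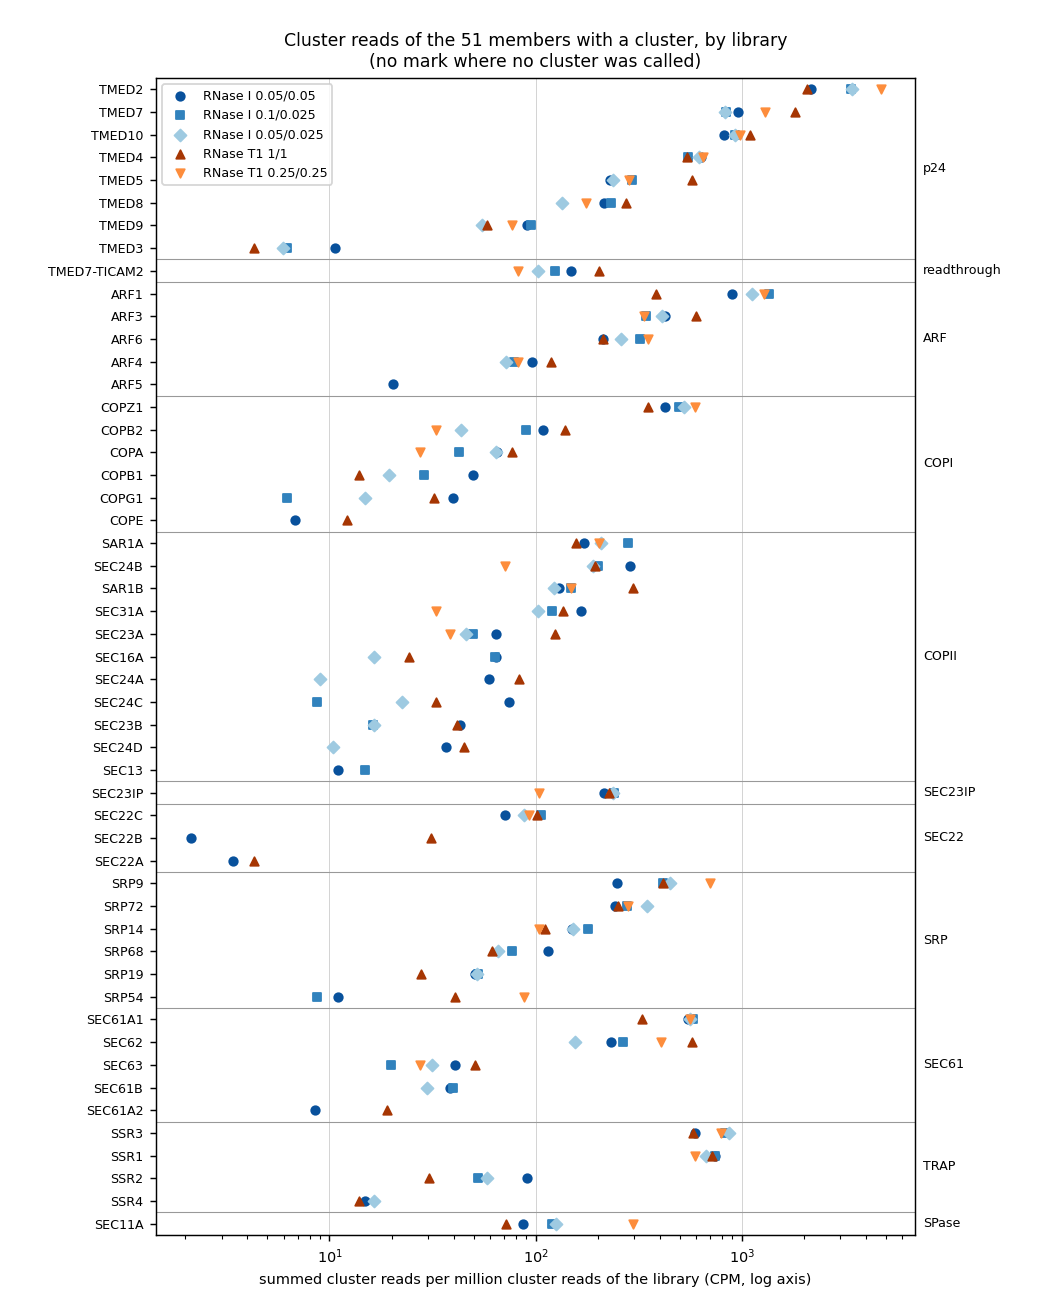
Summed cluster reads of the 51 members with a cluster, as CPM on a log axis, with 1 mark per IGF2BP3 library and the members grouped by complex. TMED2 lies highest, between 2083 and 4730 CPM, and most subunits of the COPI and COPII coats lie below 200.

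The member clusters held between 1.22% and 1.55% of all cluster reads, and the 3 leading members took 33.0% to 47.2% of the member reads of a library. The p24 cargo receptors had the largest part, 5149, 6325, 6258, 6447 and 8211 CPM in sum. TMED2, a p24 protein of the beta subfamily, had 2182, 3385 and 3438 CPM with RNase I and 2083 and 4730 CPM with RNase T1. It ranked between 12 and 17 among all protein-coding genes in every IGF2BP3 library. Per kb of canonical transcript its mean was 1244 CPM, against 293 for TMED7, the next p24 gene.

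TMED7 had 956, 838 and 835 CPM with RNase I and 1810 and 1304 with RNase T1. TMED10, a p24 protein of the delta subfamily, had 825, 927 and 930 CPM with RNase I and 1099 and 987 with RNase T1. TMED4 had 638, 548 and 622 CPM with RNase I and 544 and 652 with RNase T1. In TMED7 both RNase T1 values were above the 3 RNase I values, whereas the values of the enzymes overlapped in TMED4. Per kb the TMED genes followed the order TMED2 (mean 1244 CPM per kb), TMED7 (293), TMED4 (262), TMED10 (232), TMED5 (56.0), TMED9 (29.5), TMED8 (26.6) and TMED3 (3.82), and TMED1 and TMED6 had no cluster. TMED7, TMED4 and TMED10 changed places between libraries, and so did TMED9 and TMED8, so the order within these sets is not firm. The readthrough gene TMED7-TICAM2 had 48 clusters, of which 9 also lay on TMED7 and the other 39 on TICAM2, and its level is not that of a separate mRNA.

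Of the GTPases that recruit coats, ARF1 had 900, 1352 and 1120 CPM with RNase I and 382 and 1277 with RNase T1. The RNase T1 1/1 U/µL library was the low one. ARF3 had 424, 344 and 409 CPM with RNase I and 602 and 334 with RNase T1, and here the same library was the high one. Per kb ARF1 was first at a mean of 547 CPM, before ARF3 (104.5), ARF6 (70.0), ARF4 (56.0) and ARF5 (3.94). ARF4 was above ARF6 in both electroeluted libraries. SAR1A and SAR1B, the GTPases of COPII, were close, at 34.6 and 25.9 CPM per kb, and SAR1B was above SAR1A with RNase T1 1/1 U/µL only (45.4 against 26.5).

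In the COPI coat COPZ1, the zeta subunit, stood above the rest. It had 425, 497 and 523 CPM with RNase I and 351 and 592 with RNase T1. The next subunit, COPB2, had 108, 89.6 and 43.2 CPM with RNase I and 139 and 32.9 with RNase T1. No value of COPB2 reached the lowest of COPZ1. Per kb COPZ1 had a mean of 253 CPM, against 25.2 for COPB2, 10.4 for COPA, 6.68 for COPB1, 6.04 for COPG1 and 3.34 for COPE. The paralogs COPZ2 and COPG2 had no cluster. ARCN1, the delta subunit of COPI, is not matched by the symbol rule and was taken from a list of other secretory pathway genes. It had 981, 885 and 844 CPM with RNase I and 1419 and 1968 with RNase T1, above every COPI member of the rule in each library.

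The COPII coat had the lowest median level per kb of the larger groups beside COPI, 6.21 CPM against 6.36 for COPI and 42.7 for the p24 receptors. Among its cargo-selecting SEC24 paralogs SEC24B had 288, 202 and 189 CPM with RNase I and 195 and 71.2 with RNase T1. SEC24A had 59.7 (RNase I) and 83.0 CPM (RNase T1) in the electroeluted libraries, but 8.95 or no cluster in the crushed-gel libraries. Per kb SEC24B had a mean of 37.2 CPM, SEC24C 6.21, SEC24A 4.75 and SEC24D 4.59. SEC24D was above SEC24C with RNase T1 1/1 U/µL, so that the order of the last 3 is not firm. SEC23A had 16.8 and SEC23B 7.75 CPM per kb. In the outer coat SEC31A had 26.0 CPM per kb and SEC13 3.82, while SEC31B had no cluster. SEC16A, the scaffold of ER exit sites, had 3.74 CPM per kb and SEC16B had no cluster. SEC22C, a SNARE-like paralog of SEC22B, was a target in all 5 libraries at a mean of 14.5 CPM per kb. The vesicle SNARE SEC22B had 0.959 and SEC22A 0.453, and neither was called.

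Of the translocation machinery, SEC61A1, the channel-forming subunit, had 548, 581 and 564 CPM with RNase I and 327 and 564 with RNase T1. Its paralog SEC61A2 had 8.47 (RNase I) and 19.0 CPM (RNase T1) in the electroeluted libraries and no cluster in the others, and the means per kb were 145 and 2.2 CPM. SEC62 had 232, 266 and 155 CPM with RNase I and 577 and 406 with RNase T1, so that both RNase T1 values were the higher ones. SSR1, the alpha subunit of TRAP, had 744, 746 and 672 CPM with RNase I and 715 and 592 with RNase T1. SSR3, the gamma subunit, had 596, 834 and 871 CPM with RNase I and 582 and 795 with RNase T1. The values of the enzymes overlapped in both. SRP9 had 247, 417 and 447 CPM with RNase I and 414 and 702 with RNase T1. Per kb SRP9 led the SRP proteins with a mean of 301 CPM, before its dimer partner SRP14 (125), SRP72 (72.6), SRP68 (22.5), SRP54 (13.5) and SRP19 (13.2). The last 2 are not in a firm order, since SRP54 had 5.03, 3.98 and no cluster with RNase I and 18.6 and 40.1 CPM per kb with RNase T1, the last from 16 reads, and SRP19 had 18.3, 18.8, 18.8, 9.96 and no cluster. SEC11A, a catalytic subunit of signal peptidase, had 130 CPM per kb, and its paralog SEC11C had no cluster.

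Over members with a cluster the median level per kb of canonical transcript was 33.1, 39.7, 31.4, 32.1 and 56.4 CPM in the 5 libraries. Over all protein-coding genes with a cluster it was 9.74, 14.1, 14.9, 11.4 and 28.7 CPM per kb, below the members in each. These genes are compared without their mRNA levels.

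Clusters that touched an annotated 3′UTR held 92%, 95.1%, 94.7%, 94.6% and 98.2% of the member reads in the 5 libraries. Over all protein-coding genes the shares were 86.6%, 88.4%, 87.5%, 91.1% and 92%, lower in each library. A part of these clusters also touched the coding sequence of the same or another annotated transcript of the gene. Not each of them crosses a stop codon. In SRP68 the 100 reads concerned lay in the coding sequence of the canonical transcript, outside its 3′UTR. In the electroeluted RNase I library clusters that touched both parts held 30.1% of the member reads (95% interval 29.6% to 30.6%), beside 17.9% over all genes. Clusters in the 3′UTR without coding sequence held 61.9%, beside 68.7%. In the other libraries the clusters that touched both held 28.2%, 12.6%, 1.97% and 8.03% of the member reads, beside 13.6%, 15.5%, 5.37% and 7.66% over all genes. The direction thus turned in the RNase I 0.05/0.025 and the electroeluted RNase T1 libraries. Clusters in the 3′UTR alone held 66.9%, 82.1%, 92.7% and 90.2% there, beside 74.8%, 72%, 85.7% and 84.3%. A single TMED2 cluster of 1240 nt, which began in the coding sequence 117 nt before the end of the stop codon, held 4793 of the 8692 reads concerned. In the electroeluted RNase T1 library TMED2 had no cluster across the stop codon.

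**Figure D2:**
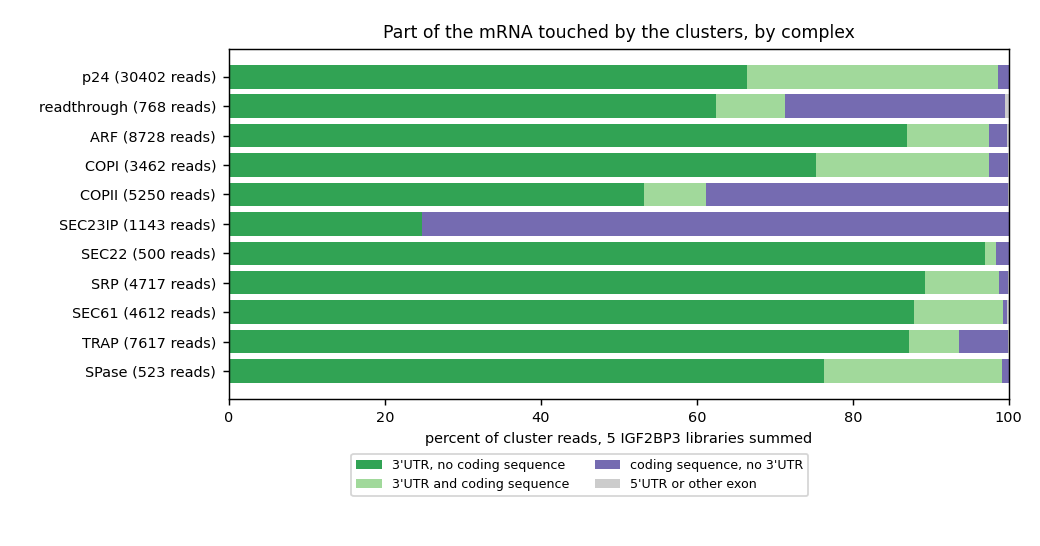
Percent of cluster reads, summed over the 5 IGF2BP3 libraries, in clusters that touched the 3′UTR alone, the 3′UTR and the coding sequence, or the coding sequence without the 3′UTR, by complex. Coding sequence clusters made up 38.7% of the COPII reads and 75.2% of those of SEC23IP, against 6.34% or less in the other complexes, the readthrough gene aside.

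In sum over its reads the COPII coat had a larger coding sequence share than the other coat and receptor groups, and this came mainly from 4 of its 11 bound members. SEC24A, SEC24B, SEC23B and SEC31A had more than 50% of their reads in coding sequence clusters, whereas SAR1A had 13 of 989 reads there, SAR1B none of 878, SEC23A 91 of 374 and SEC16A 81 of 242. SEC24C had 34 of 235, SEC13 10 of 38 and SEC24D none of 146. These shares leave out clusters that touched the 3′UTR of any annotated transcript. On the canonical transcript alone the share was 48.5% in SEC24C and 37% in SEC24D, and the 4 members stayed above 50%. Clusters in the coding sequence without the 3′UTR held 44.7% of the COPII reads in the electroeluted RNase I library (95% interval 42.8% to 46.6%), 31.8% (28.5% to 35.3%) and 33.7% (29.7% to 37.9%) in the other RNase I libraries, 34% in the electroeluted RNase T1 library (31.5% to 36.7%) and 14.4% of 90 reads at 0.25/0.25 U/µL (8.64% to 23.2%). Over all protein-coding genes the shares were 12.6%, 10.9%, 11.8%, 8.17% and 7.5%. For the p24 receptors it was between 1.02% and 1.6% in the 5 libraries, and for the COPI coat between 0 and 4.88%. SEC24B gave 1084 of the 2031 coding sequence reads of COPII. Without SEC24B, an alternative chosen after seeing the data, the COPII shares were 28.8%, 14.4% (11.7% to 17.5%), 15.1% (11.8% to 19%) and 23.1% in the first 4 libraries and none of 77 reads at 0.25/0.25 U/µL. In the crushed-gel RNase I libraries these values lie close to those of all genes.

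The members with at least 100 reads and the largest coding sequence share were, in order, SEC24A, SEC24B, SEC23IP, SEC23B, SEC31A and COPB1. On the canonical transcript alone SEC24C (48.5%) was above COPB1 (37.3%). SEC24A had 92.6% of its reads there, 90.8% (RNase I) and 94.8% (RNase T1) in the electroeluted libraries, although its 3′UTR measures 2815 nt. In SEC24B the share was 90.1%, 92.6% and 88.2% in the RNase I libraries and 86.7% and 100% in the RNase T1 libraries, the last from 13 reads. SEC23IP, a protein that binds SEC23, had 76.2%, 77.6% and 83.1% with RNase I and 66.7% and 73.7% with RNase T1. In both genes the larger part lay in the coding sequence with either enzyme. SEC31A had 51.8%, 53.1% and 59.4% with RNase I and 47.5% and none of 6 reads with RNase T1. SEC23B had 71.6% of 102 (RNase I) and 81.2% of 48 reads (RNase T1) in the electroeluted libraries, but 46.2% of 13 and 36.4% of 11 in the crushed-gel RNase I libraries. COPB1, of COPI, had 50.4% of 117, 17.4% of 23 and none of 13 reads with RNase I and none of 16 with RNase T1, so that its share came mainly from 1 library. SSR4, below the read minimum with 62 reads, had all of them in the coding sequence, and its 3′UTR measures 66 nt.

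Within the coding sequence the reads were not spread evenly. In SEC23IP 98.6% of the placed coding sequence reads had their mode in the first of 3 equal parts of the coding sequence, and a site of 556 nt at chr10:119898399-119898954 was found in all 5 libraries with 303, 133 and 109 reads with RNase I and 125 and 14 with RNase T1. The strongest clusters of the electroeluted libraries there had modes 3 nt apart. SEC24A had 75% in the first part and SEC24B 50.8%. In SEC31A and SEC23B, in contrast, 95.6% and 81.1% lay in the last part. Per kb, SEC23IP had 286 reads in the coding sequence and 67.2 in the 3′UTR when the 5 libraries were summed and each cluster was placed by its mode, SEC24B had 281 and 102, and SEC24A had 63.4 and 6.39. Of 42 members with at least 100 reads, 37 were denser in the 3′UTR, a count that was not made over all genes. Besides these 3, TMED2 and ARF6 were denser in the coding sequence, and in both this rested on clusters that crossed the stop codon.

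**Figure D3:**
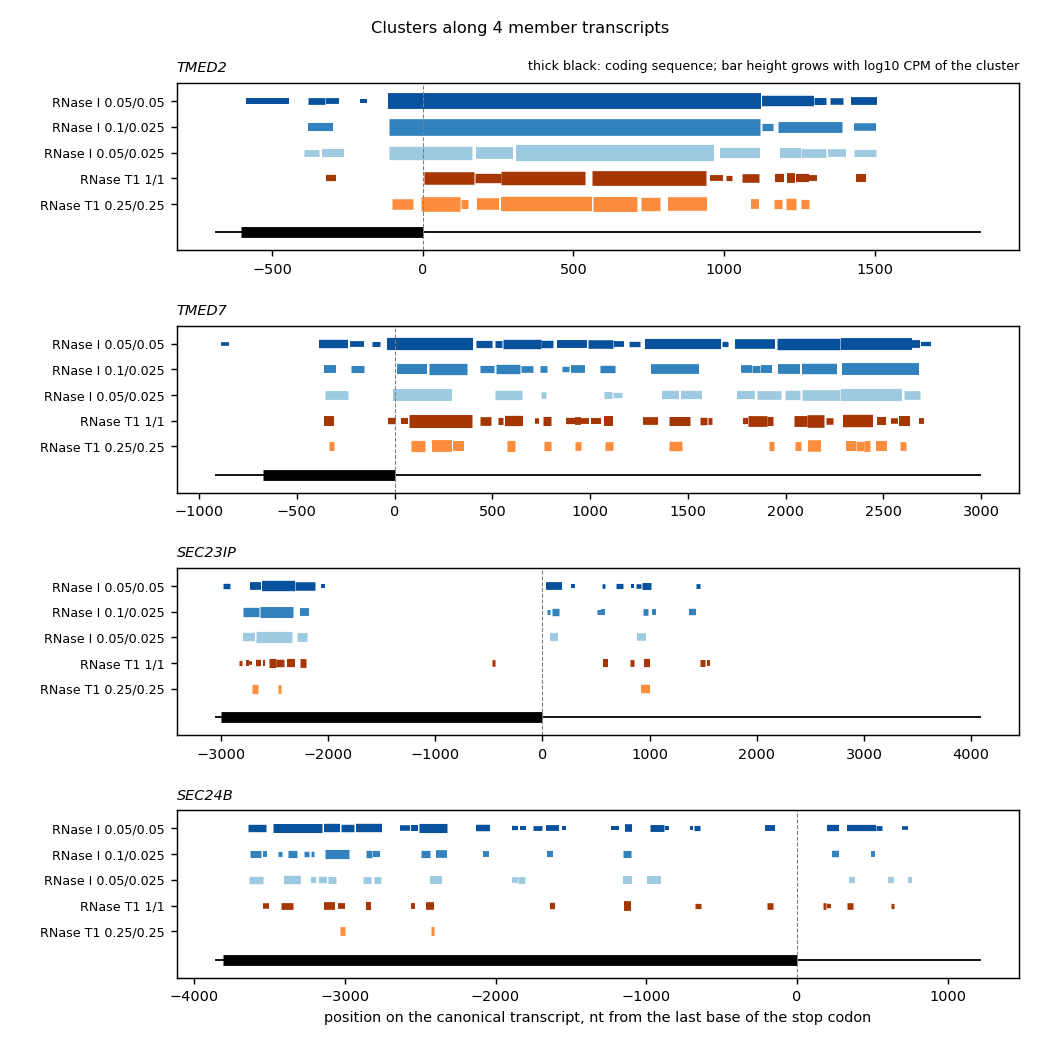
Clusters of TMED2, TMED7, SEC23IP and SEC24B in the 5 IGF2BP3 libraries along the canonical transcript, in nt from the last base of the stop codon, with the coding sequence as a thick black bar. The p24 clusters lie mainly in the 3′UTR, those of SEC23IP mainly near the start of the coding sequence and those of SEC24B along the coding sequence (46 of 48 clusters of SEC23IP and 74 of 77 of SEC24B could be placed on this transcript).

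The median part of the 3′UTR under clusters was higher among members than among genes at large. Among members with a cluster there it was 43.1%, 25.6%, 21.7%, 16.5% and 7.06% of the canonical 3′UTR. Over all protein-coding genes the medians were 23.2%, 13.2%, 12%, 7.82% and 4.73%. Of 44 members with 3′UTR clusters in both electroeluted libraries, 43 had the broader cover in the RNase I library, which is near the 94.7% of all genes. The exception was SEC22B, with a cover of 0.635% (RNase I) and 1.53% (RNase T1). With all libraries thinned to the smallest read total the medians of the members were 30.3% and 11.9% in the electroeluted libraries.

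ARF1 had the fullest cover, 98.2%, 95.8% and 86.9% of its 1199 nt with RNase I and 64.6% and 62% with RNase T1. COPZ1 had 91.5%, 70.2% and 68.9% with RNase I and 50.5% and 40.4% with RNase T1. In TMED2 the values were 79.3%, 78.0% and 73.7% with RNase I and 64.5% and 53.3% with RNase T1. Long 3′UTRs with few sites stood at the other end, such as SEC23IP (4092 nt), with 11.5% at most, and SEC24A, with 4.26% at most.

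**Figure D4:**
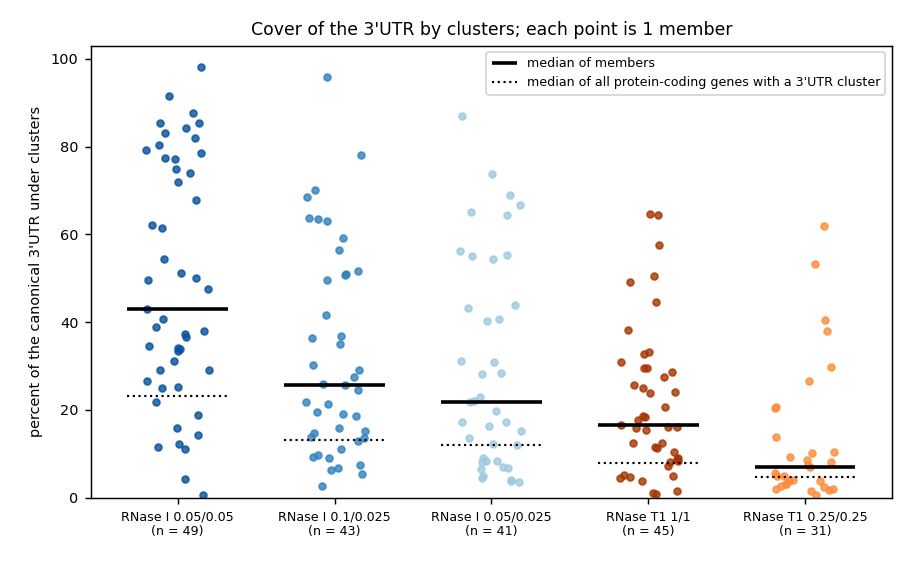
Percent of the canonical 3′UTR under clusters, with 1 point per member and library, a solid line at the median of the members and a dotted line at the median of all protein-coding genes with a 3′UTR cluster. The medians of the members, from 43.1% to 7.06%, lie above the dotted lines in all 5 libraries.

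Overlapping member clusters of the 5 libraries were merged into 627 sites, of which 74 were found in every IGF2BP3 library (11.8%, beside 6.71% of the sites of all protein-coding genes). With clusters of at least 10 reads the number was 31. The 74 sites lay on 30 members, 67 with the mode in the 3′UTR and 7 in the coding sequence. Clusters were merged within each gene, so the 9 clusters shared by TMED7 and TMED7-TICAM2 count for both. A coding sequence site of these shared clusters, found in every IGF2BP3 library, is thus counted for both genes. The 74 sites held between 74.1% and 97.3% of the member reads of a library, with shared clusters counted for each gene. Their median length was 280 nt and the longest had 1240 nt. TMED2 had the strongest, with 2029, 3220 and 3276 CPM with RNase I and 1940 and 4483 with RNase T1. As merged, this site crosses the stop codon. In the electroeluted RNase T1 library its reads came from separate clusters that began 4 nt or more past the stop codon. Sites in the 3′UTRs of ARF1, SSR3, TMED4, SRP9 and TMED10 followed. In each of the 12 leading members the strongest cluster of the electroeluted RNase I library was longer than that of the electroeluted RNase T1 library, with medians of 425 and 96 nt. These clusters overlapped in 10 of the 12, and in SSR1 and ARF3 the enzymes had different strongest sites, with modes 6123 and 369 nt apart. Among all 48 members with both, they overlapped in 26. The lengths and overlaps of strongest clusters were not compared with those of all genes.

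CATT was present within 41 nt around the mode in 17.8%, 21.7%, 24.7%, 30.9% and 32.5% of member clusters, beside 20.4%, 23%, 22.9%, 30.8% and 31.4% over all protein-coding genes. The intervals of the members held the value of all genes in each library. In the electroeluted libraries the intervals were 15% to 21% with RNase I and 27% to 35% with RNase T1. CAGT was present in 21%, 19%, 22.4%, 19.5% and 21.1% of member clusters, beside 19.4%, 20.4%, 20.8%, 18.2% and 20.9% over all genes. In whole cluster sequences, which are longer with RNase I, it was present in 42%, 37.8%, 40.9%, 16% and 20.5%, and CATT in 41.7%, 46.6%, 48.1%, 36.9% and 47.6%. Over all genes CAGT was present in 34.9%, 35.2%, 34.2%, 11.8% and 18.7% of whole clusters. CATT was present in 39.5%, 41.6%, 41%, 35.2% and 40%. These shares were below those of the members in each library. At the median member clusters measured 63, 56.5, 61.5, 36 and 37 nt and those of all genes 57, 55, 55, 34 and 38 nt. The motifs were searched on the strand of the mRNA only.

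RNase I and RNase T1 were compared in the electroeluted libraries for the 50 members with at least 20 cluster reads over both, as log2 of CPM plus a pseudocount of 1. The median difference, RNase I minus RNase T1, was 0.04 among members and 0.09 among 7342 genes. RNase I was at least 2-fold higher in 9 of 50 members, beside 24.5% of all genes, and RNase T1 in 6, beside 15% of all genes. In this pair the members thus lay close to the genes at large. In the crushed-gel pairs the medians of the members were below those of all genes. With RNase I at 0.1/0.025 U/µL against RNase T1 at 0.25/0.25 U/µL the median was 0.13 among members and 0.54 over all genes with enough reads. With RNase I at 0.05/0.025 U/µL it was 0.04 and 0.41. Genes without a cluster in 1 library of a pair enter these medians with a difference that rests on the pseudocount. In the first crushed-gel pair the upper quartile was 4.83 over all genes and 1.09 among members. The medians were not computed without such genes, so they do not set the members apart.

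The largest differences toward RNase I were in SEC61B, ARF5, SEC13, COPB1 and SSR2. SEC61B, a small subunit of the channel, had 38.5, 39.8 and 29.8 CPM with RNase I (91, 32 and 20 reads) and no cluster in either RNase T1 library. In the electroeluted libraries ARF5 had 48 reads and SEC13 26 with RNase I, and neither had a cluster with RNase T1. Of the 48 ARF5 reads 39 lay in clusters that also overlapped another gene. ARF5 had no cluster in either crushed-gel RNase I library, so its difference rests on the electroeluted RNase I library alone. SEC13 had 12 reads in the larger crushed-gel RNase I library and no cluster in the other. The electroeluted RNase I library had 2362467 cluster reads, against 1157194 in the electroeluted RNase T1 library. COPB1 had 117 and 16 reads (log2 difference 1.77, 95% counting interval without pseudocount 1.09 to 2.59) and SSR2 215 and 35 (1.56, 1.07 to 2.10). SSR2, SRP68 and SRP19 had no cluster at RNase T1 0.25/0.25 U/µL, while the crushed-gel RNase I libraries had 35 to 62 reads on SRP68, SRP19 and SSR2. As only called clusters are listed, no fold is given against a library without one.

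The largest differences toward RNase T1 were in SEC22B, SRP54, TMED5, SEC62 and SAR1B. SEC22B had 5 reads (RNase I) and 36 reads (RNase T1) in the electroeluted libraries (log2 difference -3.37) and no cluster in the crushed-gel libraries. SRP54, the subunit that binds signal peptides, had 26 and 47 reads (-1.79, interval -2.57 to -1.19) and was also higher with RNase T1 in crushed gel, where the 0.25/0.25 U/µL library had 16 reads and the larger RNase I library 7. SEC62 had 549 and 668 reads (-1.31, -1.48 to -1.15) and differences of -0.61 and -1.38 in the crushed-gel pairs. For TMED5 (-1.31) and SAR1B (-1.17) the crushed-gel pairs gave values near 0, between -0.27 and 0.04.

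Of 35 members with enough reads in the electroeluted and both crushed-gel pairs, 10 were higher with RNase I in all 3 pairs, 6 with RNase T1 in all 3, and 19 were mixed. These counts go by sign alone, from values as small as -0.006 (ARF6, electroeluted pair). They were not made over all genes, so they do not set the members apart. Of the 10, SEC61B, SSR2, SRP68 and SRP19 had no cluster in the crushed-gel RNase T1 library. Those higher with RNase T1 were ARF4, ARF6, SEC62, SRP9, TMED7 and TMED10, of which TMED7 (-0.92, -0.64 and -0.64), SRP9 (-0.74, -0.75 and -0.65) and SEC62 had counting intervals below 0 in each pair. SEC24B (0.56, 1.49 and 1.40) and SEC31A (0.29, 1.83 and 1.62) had intervals above 0 in each pair. ARF1 was 1.23 in the electroeluted pair but 0.08 and -0.19 in the crushed-gel pairs, so its difference was not shared. The crushed-gel pairs share 1 RNase T1 library and are not independent.

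**Figure D5:**
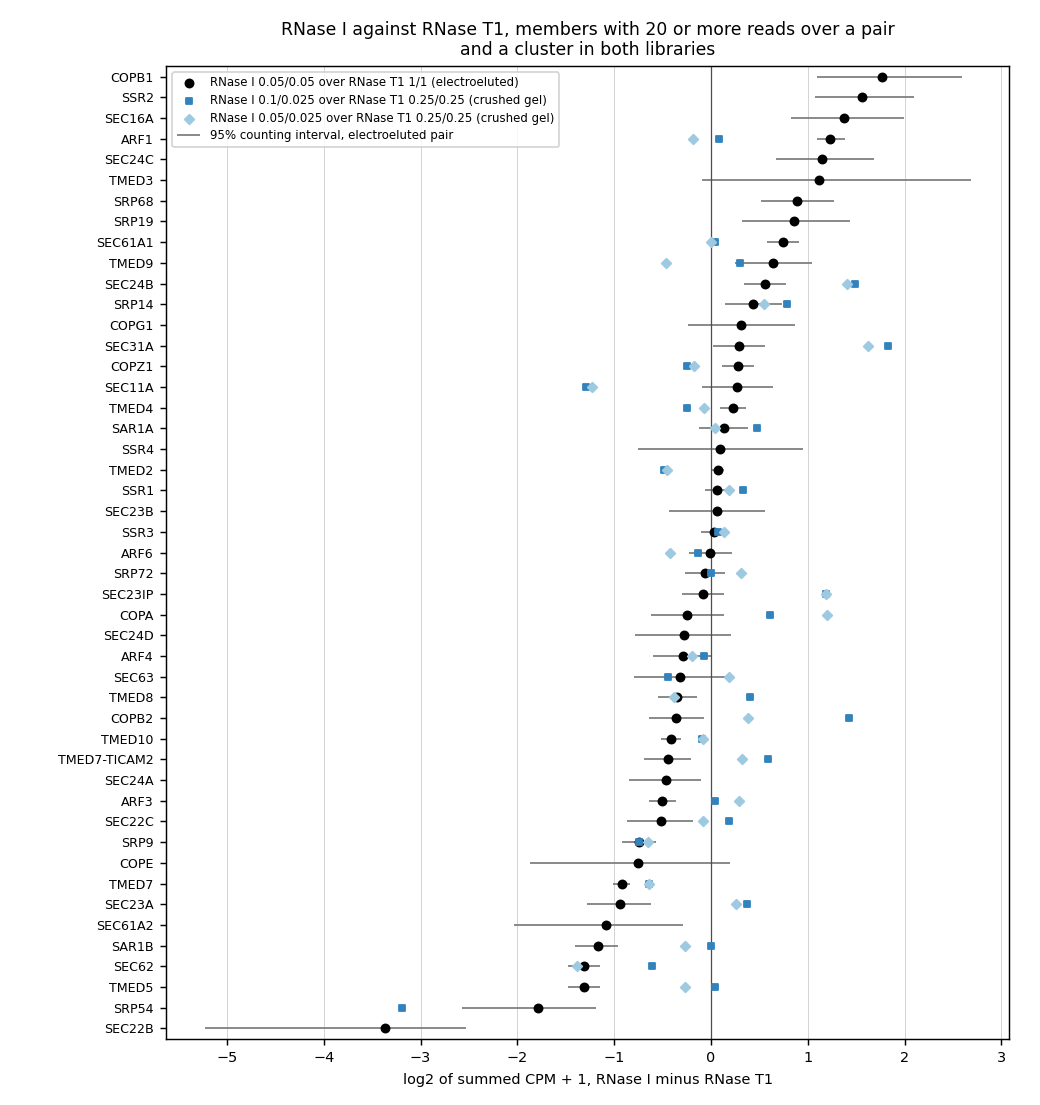
Difference in log2 of CPM plus 1 between RNase I and RNase T1 for the 47 members with a cluster in both electroeluted libraries and at least 20 reads over them (black, with 95% counting intervals) and, where both have a cluster, in the crushed-gel pairs (blue). COPB1, at 1.77, lies at the top and SEC22B, at -3.37, at the bottom, and in SEC11A and ARF1 the crushed-gel pairs lie far from the electroeluted one.

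Not every bound member passed the conversion criterion. In the electroeluted RNase T1 library 9 of the 43 members with a cluster above 10 CPM had none past 0.5 conversion events per read, beside 23% of all genes. These were ARF4, COPG1, SEC11A, SEC22B, SEC24D, SEC63, SRP14, SSR4 and TMED9. In the electroeluted RNase I library no member failed in this way, and 11 members had clusters of at most 10 CPM. The median number of conversion events per read in member clusters was 0.643, 0.625, 0.592, 0.503 and 0.571. SRP14 had 128 and SEC11A 83 reads in the electroeluted RNase T1 library, and both were bound in each IGF2BP3 library but called in 4.

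Further genes of the pathway, 50 in all, were taken from a list of receptors, accessory subunits, tethers and SNAREs that the symbol rule leaves out. With RNase I 33, 31 and 31 of the 50 were targets, and with RNase T1 25 and 19. Of all protein-coding genes 21.9%, 21.3%, 22%, 19.6% and 13.7% were, so these shares were lower with RNase T1 as well. In all 5 libraries 16 of the 50 were targets, beside 9.91% of all genes, and in none 15. All 3 accessory subunits of signal peptidase (SPCS1, SPCS2 and SPCS3) were targets in every IGF2BP3 library, and so were TRAM1, a translocon partner (534, 594, 580, 742 and 1058 CPM), and HSPA5, the ER chaperone BiP. The oligosaccharyltransferase, which glycosylates chains at the translocon, had 9 of 11 subunits called in each RNase I library but 5 and 2 with RNase T1. Of 10 ER-Golgi tethers and SNAREs 4, 4 and 3 were called with RNase I and 2 and 2 with RNase T1. The epithelial markers EPCAM, CDH1, KRT8, KRT18 and KRT19 had clusters and PTPRC, CD3E, COL1A1 and PECAM1 had none, which shows bound RNA only and not expression.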

How the data were processed

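Clusters of 6 IR-PAR-CLIP libraries were used. Per the labels and methods, the authors extracted molecular identifiers and trimmed adapters with UMI-tools 1.1.1, trimmed by size and quality with Trimmomatic 0.30, aligned to GRCh38 with Bowtie 0.12.7, removed duplicates with UMI-tools and called clusters with PARalyzer, 1 file for each library. The submitters' processing notes also name bcl2fastq 2.20.0.422. Deposited were raw read counts and counts of conversion events per cluster, with a mode score, a fraction that the authors' caller gives and that was not used. Only called clusters are listed, with 2 reads or more.

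From these, CPM (over 182448 to 2362467 cluster reads per IGF2BP3 library, which limits precision) and target calls were computed with Python 3.11.15, pandas 2.3.3, numpy 2.4.6, scipy 1.17.1, pysam 0.24.0 and bedtools 2.31.1, and plots with matplotlib 3.10.9. Clusters were assigned to genes by exon overlap of 1 nt on the same strand, so a cluster may count for several genes, and to the 3′UTR before the coding sequence and the 5′UTR. Sequences were read from GRCh38, to which every cluster sequence was identical. The window of 1 leading member is not reported here. The functions were tested on simulated data. In RNase T1 0.25/0.25 U/µL 10 CPM is 1.82 reads, so every cluster passed.

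The members and lists were chosen with earlier results of these data known. Named were the 12 members with the highest mean CPM, the 5 highest and 5 lowest enzyme differences, paralogs per kb, members called in all libraries or without clusters, and the 6 with the largest coding sequence share among those with 100 reads. Genes outside these were chosen after their values were seen. Alternatives changed the CPM and conversion thresholds, gene and feature assignment, pseudocount, depth, windows and cluster size.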

Additional observations from a re-analysis of the deposited data

How the results depend on the processing

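Values are in the order RNase I 0.05/0.05, 0.1/0.025 and 0.05/0.025, then RNase T1 1/1 and 0.25/0.25 U/µL. Of 111 recomputed values 63 stayed within 1.5 times the count or within the 95% interval. For the median 3′UTR cover and the median enzyme difference this interval reflects the spread between members, which are not replicates, and not counting error. With more than 0.75 conversion events per read 14, 18, 20 and 12 members were targets in the first 4 libraries, and with conversion events over all conversion and non-conversion events above 0.5 the number was 0 in all 5. With at least 20 reads in place of CPM it was 23 with RNase I 0.05/0.025 and 11 with RNase T1 0.25/0.25 U/µL. The 3′UTR share was 61.9%, 66.9%, 82.1%, 92.7% and 90.2% when the coding sequence came first, since clusters that touch both then leave it. On the canonical transcript only it was 89.4%, 93.3%, 93.2%, 93.4% and 97.6%. Without TMED2 it was 90.5%, 93.8%, 93.2% and 93.7% in the first 4 libraries. CATT was present in 41.7%, 46.6%, 48.1%, 36.9% and 47.6% of whole cluster sequences, which differ in length, and CAGT in 42.0%, 37.8%, 40.9% and 16% in the first 4 libraries. With 1 window per gene CATT was in 25.5%, 30.2%, 39.6% and 46.9% and CAGT in 17.6%, 9.30% and 8.33% where the value left its interval, so the higher CATT share with RNase T1 1/1 than RNase I 0.05/0.05 U/µL was not seen in whole clusters. The thinned 3′UTR cover with RNase I 0.05/0.05 U/µL was 30.3%. Without SEC24B, chosen after seeing the data, the COPII coding sequence share was 28.8%, 14.4%, 15.1%, 23.1% and 0. With clusters of at least 10 reads 31 sites were in all 5 libraries. The median enzyme difference was between -0.03 and 0.13, with thinning at the lower end, so its sign is not settled. No paired analysis was possible because each condition has 1 library.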
